A study of Drosophila melanogaster with 2 samples.

Results

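The protein-coding genes of chromosome 4 of Drosophila melanogaster are described here by the peaks of the tagged protein CG14711-eGFP at their promoters and in their bodies. Members were all protein-coding genes that the Ensembl annotation places on chromosome 4, leaving out pho and every symbol that starts with Rp, ND-, MED, eIF, Taf, TfII, Atg, Vps, Nup, Sec or Ir. This gave 74 of the 80 protein-coding genes of the chromosome, out of 13945 on the 6 chromosome arms analysed, 2L, 2R, 3L, 3R, X and chromosome 4 itself. The 6 genes left out were MED26, ND-49, RpS3A, Taf3, eIF4G1 and pho. The rule uses the chromosome and the symbol only.

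Sequencing of immunoprecipitated chromatin (ChIP-seq) used an antibody against GFP and whole adult females of a transgenic line that stably expresses CG14711 with a carboxy-terminal eGFP tag. The animals' age is given as unknown and chromatin was sonicated to a stated 200 to 800 bp. The design held 1 group of 2 samples, numbered as biological replicates 3 and 4, and no second genotype or treatment. All tissues of the fly contributed chromatin, so a peak cannot be assigned to a cell type, and binding in few cells cannot be told apart from weak binding in many.

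CG14711 belongs to the ZAD zinc finger genes, a DNA-binding family that has expanded in insects. Chromosome 4, the dot chromosome, is the smallest of the fly and carries marks of heterochromatin along most of its length, yet its genes are transcribed. It is coated by the heterochromatin protein HP1a, by the chromosome 4 protein Pof, and by the histone methylation that egg and its partner wde lay down. Its genes are long, their introns hold many copies of repeats such as INE-1, and Pof helps to set their output.

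A gene was given a promoter peak where a summit stood 500 bp or less from any of its annotated transcription start sites (TSSs). A gene-body peak has its summit inside the gene and more than 500 bp from every TSS of that gene. Peaks came from 4 lists: the peaks kept by the irreproducible discovery rate (IDR), a score of how reproducible a ranked peak is, the peaks of the pooled replicates, and the peaks of each replicate. The IDR list holds exactly the 5654 pooled peaks of highest signal, so a peak has the same signal and rank in both. The other 3 lists hold 30000 peaks each. Signal is the authors' value, ranks run from 1 for the strongest peak, and both are compared within a list only. The lists carry no read counts, so the depth is unknown.

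The strongest IDR peaks of members lay at the promoters of Mpv17, gw, Arl4 and PlexA and in an intron of gw. Their sequences are shown because these 5 peaks lead the chromosome 4 members, and the word at Zyx and apolpp because it is the only motif 1 match within 50 bp of a member's IDR summit. All are read on the minus strand of dm6, the strand of Mpv17, gw, Arl4, PlexA and Zyx, 5′ to 3′. Capitals mark the word CAACCCT at Mpv17, the word TATAAA read from the opposite strand in the gw intron, and the word GGTCACACT at Zyx and apolpp. The other 3 sequences hold none of the words searched and have no capitals.
Mpv17 promoter, chr4:1029332-1029429: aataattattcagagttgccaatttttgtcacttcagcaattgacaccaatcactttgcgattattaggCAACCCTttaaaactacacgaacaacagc
gw promoter, chr4:660063-660163: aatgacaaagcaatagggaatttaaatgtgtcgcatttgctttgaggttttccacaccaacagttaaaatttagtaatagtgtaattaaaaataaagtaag
Arl4 promoter, chr4:179195-179295: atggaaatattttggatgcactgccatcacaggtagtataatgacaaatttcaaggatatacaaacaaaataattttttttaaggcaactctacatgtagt
PlexA promoter, chr4:1027235-1027335: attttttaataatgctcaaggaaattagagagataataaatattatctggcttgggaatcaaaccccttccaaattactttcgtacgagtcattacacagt
gw intron, chr4:659192-659292: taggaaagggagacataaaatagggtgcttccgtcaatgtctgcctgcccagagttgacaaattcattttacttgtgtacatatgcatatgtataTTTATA
Zyx and apolpp, chr4:1060872-1060900: ctcgtgttaaGGTCACACTgctgggcctc

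Chromosome 4 promoters were often marked in the long lists, and mostly by peaks of modest signal. In the IDR list 20 of 74 members had a promoter peak, which is 27% (Wilson 95% interval 18.2 to 38.1), beside 30.7% of all protein-coding genes. In the longer pooled list 64 of 74 members did, 86.5% (76.9 to 92.5), beside 60.9%. The IDR share of the members thus lay near the background, while the pooled share lay above it. The order in the IDR list turned for genes with no other TSS within 1000 bp, where 10 of 42 members had a promoter peak (23.8%) beside 1185 of 7177 other protein-coding genes (16.5%). Both replicates gave the same picture as the pooled list. In replicate 3, 59 members (79.7%) had a promoter peak, beside 59.8% of all protein-coding genes, and in replicate 4, 62 members (83.8%) did, beside 60.2%. These shares are described without a test, and the intervals cover the sampling of genes only.

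The members also differed in length from other genes. Members were long, with a median span of 10455 bp against 2166 bp over all protein-coding genes, and a median longest intron of 2018 bp against 112 bp. Among genes between 5796 and 18165 bp, the interquartile range of the members, 29 of 36 members had a pooled promoter peak (80.6%, 65 to 90.2), beside 78.1% of 1940 protein-coding genes of that length. In the IDR list 7 of the 36 did (19.4%, 9.75 to 35), beside 41.5%. Against genes of like length, the pooled share of the members was therefore close to the background and the IDR share lay below it.

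**Figure D1:**
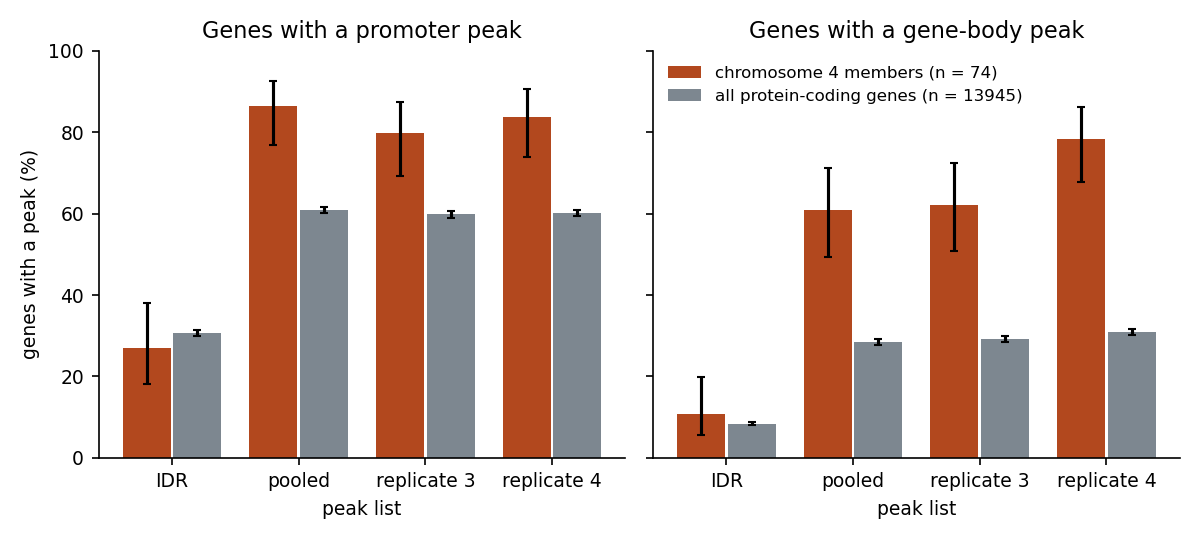
Share of genes (%) with a promoter peak (left) and a gene-body peak (right) in each of the 4 lists, for the 74 members and for all 13945 protein-coding genes, with Wilson 95% intervals as bars. At promoters the members reach 86.5% in the pooled list but 27% in the IDR list, and in gene bodies 60.8% and 10.8%.

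The signal at members' promoters had a lower median than that of all genes in each of the 4 lists, and by the least in replicate 3. The strongest promoter peak of a member had a median pooled signal of 107.8 over the 64 members with one, against 147.5 over 8495 protein-coding genes. Within the IDR list the medians were 186.5 over 20 members and 296.2 over 4276 genes. In replicate 4 they were 67.8 over 62 members and 96.4 over 8398 genes. In replicate 3 the medians were 57.7 over 59 members and 62.8 over 8333 genes. Of the 64 members with a pooled promoter peak, 20 (31.2%) reached the IDR list, against 50.3% of such genes overall.

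The 20 members with an IDR promoter peak rested on 18 distinct peaks. Of these, 3 lay within 500 bp of a TSS of each of 2 neighbouring or overlapping members and were counted for both (CG11076 and ATPsynbeta, Dyrk3 and Cadps, Zyx and apolpp), and pan had 2. In the replicate lists, values below are those of the peak whose summit lay within 100 bp of the IDR summit.

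Among genes of RNA silencing, metabolism and organelle function, 2 members carried the strongest promoter peaks of all. The promoter of Mpv17 (FBgn0039930, 4, 1028675 to 1029361), whose mammalian counterpart is a mitochondrial inner membrane protein, had a peak of signal 1164 at rank 406 in the IDR list. Its signal was 540 (rank 252) in replicate 3 and 633 (rank 542) in replicate 4. Its summit was 18 bp upstream of the TSS.

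The promoter of gw (FBgn0051992, 4, 649041 to 660608), which encodes the GW182 partner of Argonaute in microRNA silencing, had a peak of signal 866 at rank 618. It had a signal of 310 (rank 588) in replicate 3 and 567 (rank 640) in replicate 4, and its summit lay 130 bp upstream of an internal TSS, inside an intron. Both genes ranked at 640 or better in every list, and no other member promoter came as high in the pooled list.

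ATPsynbeta, the β subunit of the mitochondrial ATP synthase, shared a peak of signal 242 (rank 3042) with CG11076. The same peak had rank 1590 in replicate 3 (signal 148) and rank 4967 in replicate 4 (signal 107), and its summit lay in a coding exon of ATPsynbeta. The lipoprotein gene apolpp shared a peak of signal 172 (rank 4609) with Zyx, which encodes the actin-associated protein zyxin. In replicate 3 it had rank 3628 (signal 86.0) and in replicate 4 rank 7780 (signal 71.3).

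Mpv17 and CG11076 were in none of the role lists. Of the 6 genes of the housekeeping and metabolism list, ATPsynbeta, gw and apolpp had an IDR promoter peak (50%, beside 30.7% of all protein-coding genes). All 6 had a pooled one (100%, beside 60.9%). The other 3 were Tdg, a DNA glycosylase, Rad23, a DNA repair and proteasome shuttle factor, and PMCA, a calcium pump, with pooled signals of 143, 113 and 48.8.

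Among ligands, receptors and signalling genes, 4 of 12 had an IDR promoter peak (33.3%, near the 30.7% of all protein-coding genes) and 11 a pooled one (91.7%, beside 60.9%). Arl4 (FBgn0039889, 4, 177348 to 179389), an Arf-like GTPase, had a peak of signal 565 at rank 1085, 144 bp downstream of its TSS in an intron. Its signal was 295 (rank 627) in replicate 3 and 280 (rank 1592) in replicate 4, with the summit at the same base in all lists. PlexA (FBgn0025741, 4, 1009895 to 1027101), a semaphorin receptor of axon guidance, had a peak of signal 452 at rank 1428, 184 bp upstream of the TSS. Its signal was 114.5 (rank 2333) in replicate 3 and 332 (rank 1304) in replicate 4.

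Weaker peaks marked the kinase genes PIP4K and Dyrk3. PIP4K, a phosphoinositide kinase, had a signal of 269 (rank 2662), with rank 1499 (signal 155) in replicate 3 and rank 3646 (signal 138) in replicate 4. Dyrk3, a dual-specificity kinase, shared a peak of signal 174 (rank 4555) with Cadps, which acts in dense-core vesicle release. That peak had rank 3591 (signal 86.6) in replicate 3 and rank 8970 (signal 62.2) in replicate 4. Unlike the peaks of Arl4 and PlexA, the shared one left the best 5654 peaks in replicate 4.

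Among 16 transcription factors and co-factors, 5 had an IDR promoter peak (31.2%, near the 30.7% of all protein-coding genes) and 15 a pooled one (93.8%, beside 60.9%). Mitf, a basic helix-loop-helix factor known for its control of lysosomal genes, had the highest signal of these at 272 (rank 2626), 248 bp upstream of an internal TSS. In replicate 3 it ranked 2394 (signal 113), and in replicate 4 it ranked 2848 (signal 172). The neuronal factor onecut had a signal of 263 (rank 2739), with rank 2011 (signal 126) in replicate 3 and rank 4182 (signal 124) in replicate 4. Both stayed among the best 5654 peaks of each replicate.

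Gyf, a GYF-domain protein counted here with the co-factors but known for translational repression, had a signal of 191 (rank 4058), 111 (rank 2454) in replicate 3 and 102 (rank 5202) in replicate 4. Another, the Pax6 gene ey, a master regulator of eye development, had a signal of 163 (rank 4929), 62.1 (rank 5870) in replicate 3 and 114 (rank 4605) in replicate 4. At pan, the TCF gene that mediates Wingless signalling, a peak of signal 162 (rank 4979) stood at 1 TSS and of 156 (rank 5254) at another. The first had rank 2599 (signal 107) in replicate 3 and rank 8267 (signal 67.5) in replicate 4, and the second had no replicate 3 summit within 100 bp and rank 5835 (signal 92.4) in replicate 4. The peak of ey and the first of pan were thus outside the best 5654 of 1 replicate, and the second of pan was in the best 5654 of neither.

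Of 9 neuronal and synaptic genes, 2 had an IDR promoter peak (22.2%, beside 30.7% of all protein-coding genes) and 6 a pooled one (66.7%, near the 60.9% of all). CaMKII, a calcium-dependent kinase of learning and synaptic plasticity, had a signal of 182 (rank 4303), 58.0 (rank 6444) in replicate 3 and 135 (rank 3747) in replicate 4. Cadps was the other, through the peak shared with Dyrk3. All 3 members of the muscle and cytoskeleton list had a pooled promoter peak (beside 60.9% of all protein-coding genes), with signals of 172 at Zyx, 62.4 at Ank and 29.97 at bt, the giant muscle protein projectin.

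Of the 28 members in none of the role lists, 5 had an IDR promoter peak (17.9%, beside 30.7% of all protein-coding genes) and 23 a pooled one (82.1%, beside 60.9%). Mpv17 and CG11076 were among the 5. The remaining IDR promoter peaks of members were close to the end of the list. Arf4, a small GTPase of vesicle traffic, had a signal of 161 (rank 5004) and rank 3091 (signal 95.3) in replicate 3, with no replicate 4 summit within 100 bp. Its promoter did hold a replicate 4 summit just past that distance, at rank 8427 (signal 66.3). Zip102B, of the ZIP zinc transporter family, had a signal of 158 (rank 5151), 107 (rank 2589) in replicate 3 and 62.4 (rank 8945) in replicate 4. CaMKI, a calcium-dependent kinase, had a signal of 148 (rank 5597), 110 (rank 2503) in replicate 3 and 73.4 (rank 7540) in replicate 4. By the strongest promoter peak of each member, these were the 3 weakest inside the IDR list, whose lowest signal was 146.3.

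**Figure D2:**
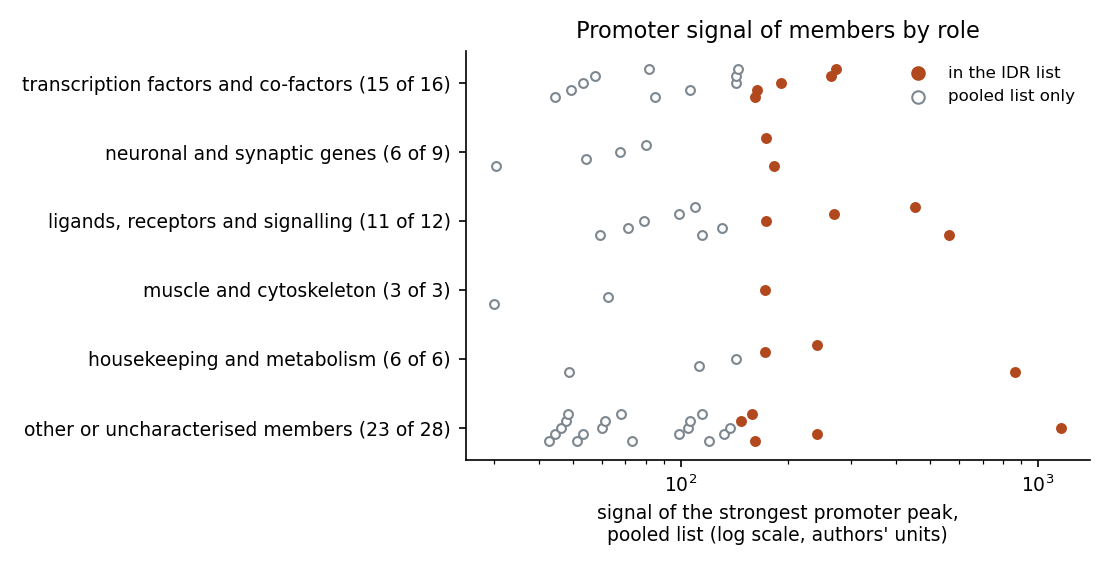
Pooled signal (log scale, authors' units) of the strongest promoter peak of each of the 64 members that had one, by role, with the number of members with a peak of all in each role. Filled points are members in the IDR list, open points are in the pooled list only, and the 2 strongest are Mpv17 at 1164 and gw at 866.

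Just outside the IDR list were 3 promoter peaks of 4 members. Hcf, the host cell factor, a chromatin co-factor, had a pooled signal of 144 (rank 5745), the Hedgehog-pathway factor ci 143 (rank 5800), and Tdg and its neighbour Pur-alpha, which binds single-stranded nucleic acids, a shared peak of 143 (rank 5814). In the replicates, the strongest promoter peak of each gene is given for these and the next members, which need not be the pooled peak. In replicate 3 they had ranks 4711 at Hcf, 5061 at ci and 4287 at Tdg and Pur-alpha, with signals of 72.0, 68.7 and 76.9, the last from a summit more than 100 bp from the pooled one. In replicate 4 they had ranks 8290, 5117 and 8187, with signals of 67.4, 103 and 68.1. Arf4, Zip102B and CaMKI, just inside the list, all ranked above them in replicate 3. In replicate 4, by the strongest promoter peak, Hcf and Tdg ranked below CaMKI but above Arf4 and Zip102B, and ci ranked above all 3.

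Next in the pooled list came CG11360 (137, rank 6121), CG32017 (132, rank 6390), the ephrin receptor Eph (130, rank 6518), anne (120, rank 7106), and CG46466 and Slip1, which shared a peak (114.8, rank 7496). The same peak could rank differently in the replicates. CG11360 had rank 16105 (signal 27.1) in replicate 3 and rank 5051 (signal 105) in replicate 4. At CG46466 and Slip1 the pooled peak had rank 5153 (signal 103) in replicate 4, while the strongest summit of replicate 3, at rank 13831 (signal 31.0), was more than 100 bp away. At anne the pooled peak had rank 3090 (signal 95.3) in replicate 3, while the strongest summit of replicate 4, at rank 10051 (signal 55.6), was at another TSS. The ranks lay closer together at CG32017, at rank 5292 (signal 66.7) in replicate 3 and 7611 (signal 72.8) in replicate 4, and Eph, at rank 10832 (signal 38.6) in replicate 3 and 7151 (signal 77.2) in replicate 4.

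The other 34 members with a pooled but no IDR promoter peak had pooled signals of 29.97 to 112.7. In the pooled list 10 members had none, and 4 of these had no promoter summit in any list: CG32006, the kainate-type glutamate receptor gene Ekar, the forkhead gene fd102C and the kinesin gene Kif3C. For CG32006 and fd102C the gene body was empty in every list as well.

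The 2 replicates shared most members, and their order only in part. A promoter peak was present in both for 52 members, in replicate 3 only for 7 and in replicate 4 only for 10. Across those 52 members the ranks had a Spearman correlation of 0.541, a description over genes that partly share peaks. The strongest summits of the 2 replicates lay within 100 bp of each other for 26 of the 52, with a median distance of 97.5 bp.

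When each replicate list was limited to its best 5654 peaks, 27 members had a promoter peak in replicate 3 (36.5%, 26.4 to 47.9), beside 29.4% of all protein-coding genes. In replicate 4, 20 members did (27%, 18.2 to 38.1), beside 30.5%. Any promoter summit of a gene was counted here, not only the one matching its IDR peak. Of the 20 members in the IDR list, 19 were in this part of replicate 3, 14 in that of replicate 4 and 13 in both. CaMKII in replicate 3 (rank 4288) and Zyx and apolpp in replicate 4 (rank 4715) were in through a summit more than 100 bp from the IDR summit. Their IDR peaks ranked 6444 and 7780 there, outside the best 5654. The 6 missing in replicate 4 were Arf4, CaMKI, Cadps, Dyrk3, Zip102B and pan, and the 1 missing in replicate 3 was ey.

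**Figure D3:**
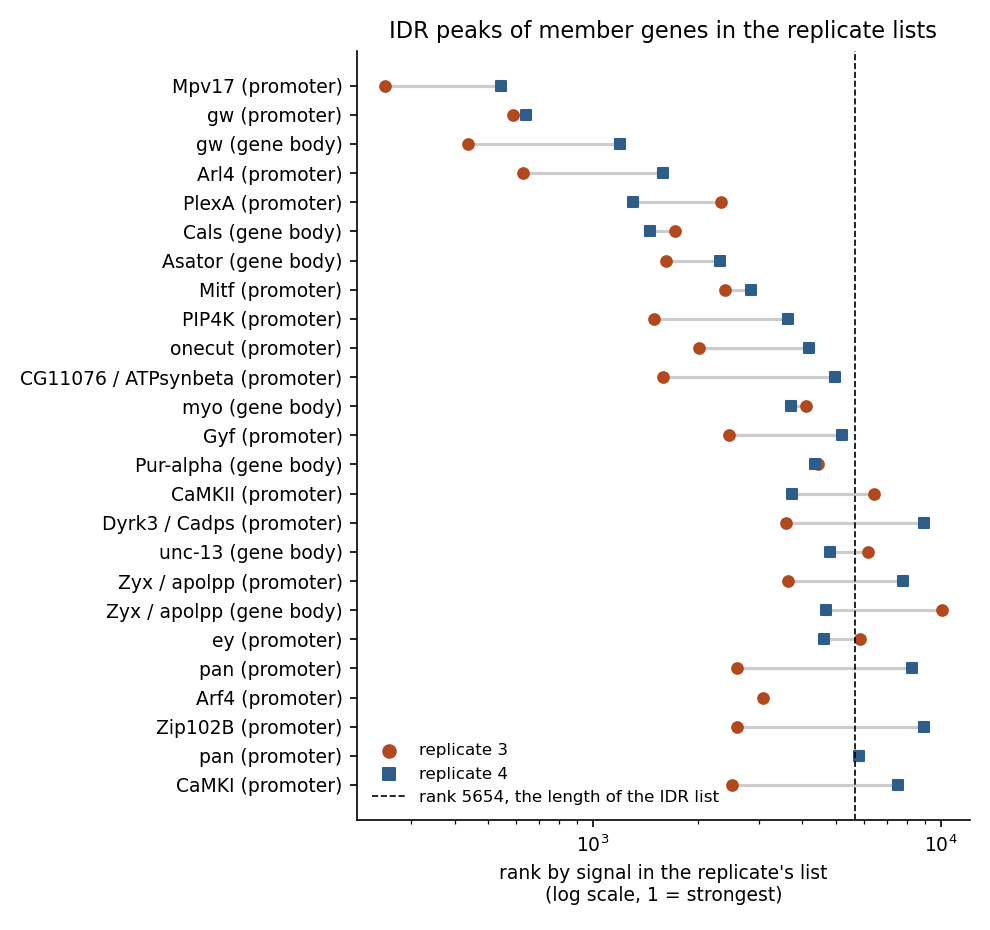
Rank by signal (log scale, 1 is the strongest) of each of the 25 IDR peaks at or in a member in the lists of replicate 3 (circles) and replicate 4 (squares), ordered by pooled signal, with the length of the IDR list as a dashed line. Mpv17 lies at ranks 252 and 542, while the weak peaks of Zip102B and CaMKI cross the line in replicate 4 only.

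Few members had a gene-body peak in the IDR list, at a share near that of all protein-coding genes. In the IDR list 8 members had a gene-body peak (10.8%, 5.58 to 19.9), on 7 peaks, beside 8.4% of all protein-coding genes. The strongest lay in an intron of gw, 741 bp from a TSS, with a signal of 732 (rank 764), 386 (rank 437) in replicate 3 and 354 (rank 1197) in replicate 4. With its promoter peak, gw thus carried a pair of strong peaks in every list.

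The second was in Cals, which encodes the neuronal cadherin-like protein calsyntenin. It had a signal of 437 (rank 1473), 140 (rank 1722) in replicate 3 and 300 (rank 1460) in replicate 4, and it lay 9642 bp from the Cals TSS in an exon. The gene sv, on the other strand, overlaps the end of Cals and stops at base 1113317, just short of the summit at 1113323. In replicate 3 the summit (1113302) lay inside sv as well, so the peak cannot be assigned to Cals alone. Asator, a tau-tubulin kinase, had an intronic peak of signal 345 (rank 1979), with rank 1622 (signal 146) in replicate 3 and rank 2316 (signal 204) in replicate 4. At 577 bp from a TSS it was just past the promoter limit.

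The last 4 were weaker. The TGF-β ligand gene myo had an exonic peak of signal 213 (rank 3515), with rank 4109 (signal 79.3) in replicate 3 and rank 3720 (signal 136) in replicate 4. Pur-alpha had an intronic one of signal 184 (rank 4263), with rank 4450 (signal 75.1) in replicate 3 and rank 4346 (signal 120) in replicate 4. These stood 665 and 569 bp from a TSS of their gene, so both would be promoter peaks within 1000 bp.

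The synaptic vesicle priming gene unc-13 had an intronic peak of signal 173 (rank 4567), 102 bp from the start of an antisense RNA, with rank 6159 (signal 60.0) in replicate 3 and rank 4816 (signal 110) in replicate 4. Zyx and apolpp overlap, and an intronic peak in both had a signal of 167 (rank 4787), with rank 10082 (signal 41.0) in replicate 3 and rank 4666 (signal 113) in replicate 4. In all, 25 members had an IDR summit at the promoter or in the body, gw, Zyx and apolpp had both, and 49 had neither.

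The pooled list placed a gene-body peak in 45 members (60.8%, 49.4 to 71.1), beside 28.5% of all protein-coding genes. Replicate 3 placed one in 46 members (62.2%, 50.8 to 72.4), beside 29.1%, and replicate 4 in 58 (78.4%, 67.7 to 86.2), beside 30.9%. Genes of like length gave the opposite order. In the interquartile range of member lengths, 20 of 36 members had a pooled gene-body peak (55.6%, 39.6 to 70.5), beside 67.6% of the 1940 protein-coding genes. In the IDR list 5 of the 36 did (13.9%, 6.08 to 28.7), beside 23.4%.

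Few gene-body summits of members were found in both replicates. Of the 92 member gene-body summits of replicate 3, 21.7% had a replicate 4 summit within 100 bp, against 35.5% over all protein-coding genes. Of the 162 in replicate 4, 11.7% had one in replicate 3, against 34.7%. At member promoters the shares were 45.3% of 95 summits in replicate 3 and 44% of 100 in replicate 4, against 56.5% and 57.7% over all protein-coding genes. All 4 shares of the members were below those of all genes. Their signals were lower too: the strongest gene-body peak of a member had a median signal of 27.7 in replicate 3 and 30.5 in replicate 4, against 34.7 and 43.5 over all protein-coding genes with one. The part of signal in this was not tested.

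Promoter summits of members lay upstream of the start site less often than those of all genes in each of the 4 lists, which is described without a test. The median position of the IDR summit was 6.5 bp downstream of the nearest TSS of the gene, with 10 of 20 members upstream (50%), against 112 bp upstream and 84% over 4276 protein-coding genes. In the pooled list the median was 43 bp upstream with 59.4% of 64 members upstream, against 90 bp and 76.7% of 8495 genes. In replicate 3, 55.9% of members lay upstream, against 71.3% of genes, and in replicate 4, 62.9% against 78.1%. The members' upstream share was the smaller one with and without a near neighbour. With no other TSS within 1000 bp, 6 of 10 members were upstream (60%), against 78.4% of 1195 genes. With another TSS that near 4 of 10 were (40%), against 86.1% of 3081. The latter 10 include the 3 pairs of members that share an IDR peak. Each shared summit lay upstream of a gene and downstream of the other and was counted for both, so these members are not independent.

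**Figure D4:**
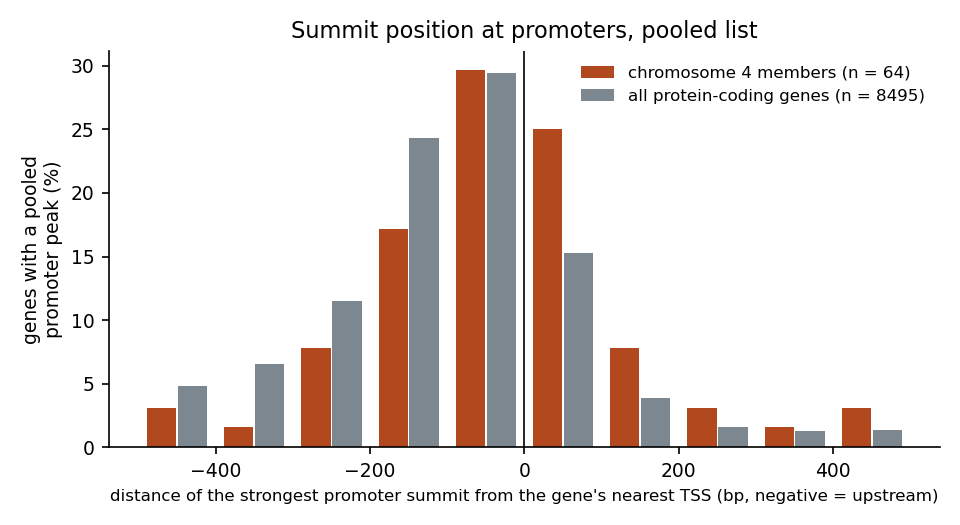
Distance (bp, negative is upstream) of the strongest pooled promoter summit from the nearest TSS of its gene, as the share (%) of genes in steps of 100 bp, for the 64 members and 8495 protein-coding genes with such a peak. In the 100 bp downstream of the TSS lie 25% of members and 15.3% of all genes.

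Members with an IDR promoter peak were most frequent in the distal part of the chromosome. With the chromosome cut into 3 equal segments, the IDR list marked 4 of 28 members of the first (bases 1 to 449377, 14.3%), 4 of 22 of the middle one (18.2%) and 12 of 24 of the distal one (bases 898755 to 1348131, 50%). The pooled list showed no such slope, with 89.3%, 81.8% and 87.5%. Over all protein-coding genes the shares were 30.7% in the IDR list and 60.9% in the pooled list. All IDR summits, at members or not, numbered 8, 10 and 13 in the 3 segments, a flatter slope. In the distal segment, PlexA, Mpv17, CG11076, ATPsynbeta, CaMKII, Zyx and apolpp formed an unbroken run of 7 members over 67379 bp, on 5 peaks. PIP4K, Mitf, Dyrk3 and Cadps formed a run of 4 over 79341 bp, on 3 peaks. In the best 5654 peaks of a single replicate, the distal count was 13 of 27 members in replicate 3 and 9 of 20 in replicate 4. The counts rest on few genes and were not tested. Neighbours that share an IDR promoter peak, all of them in the distal segment, are not independent.

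On the chromosome as a whole, 31 IDR summits fell on chromosome 4, 0.548% of the list, on 1.01% of the sequence and 0.574% of the protein-coding genes of the arms. Of these, 18 lay at member promoters and 7 in member bodies. Windows within 500 bp of a member TSS make up 8.06% of the chromosome and held 58.1% of its IDR summits and 38.7% of its 261 pooled summits. Member bodies outside them make up 66.2% and held 22.6% and 38.3%. The other 6 IDR summits lay at RpS3A or eIF4G1 (3) or in intergenic sequence outside these windows (3). One of the last 3, with a signal of 304 (rank 2268), was 718 bp from the TSS of myo, past the promoter limit. Another was the strongest IDR peak of the chromosome, a peak of signal 1649 (rank 216) that stood 9646 bp from the nearest TSS, that of a long noncoding RNA. It ranked above every member peak, at rank 121 (signal 837) in replicate 3 and 353 (signal 828) in replicate 4.

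Chromosome 4 held a larger share of the weakest peaks than of the strongest in the pooled and replicate 4 lists. Among the 3000 strongest pooled peaks 0.467% lay on the chromosome (0.278 to 0.782), and among the 3000 weakest 1.27% (0.924 to 1.73). In replicate 4 the shares were 0.433% (0.253 to 0.74) and 1.43% (1.07 to 1.93), with a high of 2.17% (1.7 to 2.75) between ranks 21001 and 24000. In replicate 3 they were 0.633% (0.406 to 0.987) and 1.00% (0.701 to 1.42), intervals that overlap. The 2 replicates placed 240 peaks (replicate 3) and 336 peaks (replicate 4) on the chromosome.

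**Figure D5:**
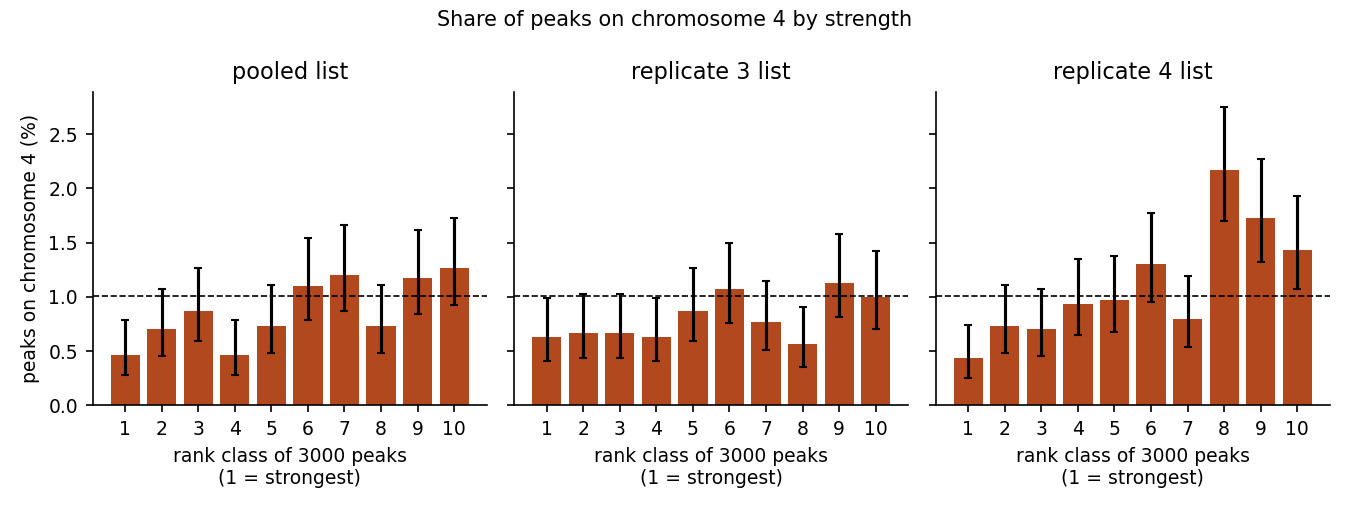
Share (%) of the peaks of each rank class of 3000 that lie on chromosome 4, from the strongest (1) to the weakest (10), in the pooled and both replicate lists, with Wilson 95% intervals and, dashed, the share of the chromosome in the sequence of the arms (1.01%). The shares run from 0.467% to 1.27% in the pooled list and reach 2.17% in class 8 of replicate 4.

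Transposable elements, which fill much of the chromosome, held few summits. None of the 31 IDR summits lay in an annotated element (0%, 0 to 11). In the pooled list 24 of 261 did (9.20%, 6.26 to 13.3), although elements cover 24.8% of the chromosome and INE-1 makes up 344 of its 566 annotated insertions. On the other 5 arms 0.343% of pooled summits lay in an element, beside 5.74% of the sequence. Replicate 4 had 10.4% of its chromosome 4 summits there and replicate 3 had 6.25%. How well reads can be placed in these repeats was not tested.

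The sequence under the summits was searched on both strands, within 50 bp, for 6 words. The word CAACCCTG was the best word of earlier work on these data. It was at none of the 31 IDR summits of chromosome 4 (0%, 0 to 11), against 2.74% on all arms. Its first 7 bases, CAACCCT, a word added after these data were seen, were at 3 of them (9.68%, 3.35 to 24.9), against 4.28%. The 3 were the strongest peak of the chromosome and the promoter peaks of Mpv17 and onecut. At Mpv17, as the printed sequence shows, the next base departs from the longer word.

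The other words were at 3 or fewer of these summits each. GGTCACACT (motif 1) was at 1 of 31, the peak shared by Zyx and apolpp, against 1.31% on all arms. TATAAA (the TATA box) was at 3 of 31 (9.68%, 3.35 to 24.9), against 21.5%, in gw, Cals and Mitf. The order turned within 100 bp of the IDR summits (38.7% against 35.9%) and at the 261 pooled summits (23.8%, 19 to 29.3, against 16.9%). CAGCTG (an E-box) was at 1, in Pur-alpha, against 4.53%. Neither TATCGATA (the DNA replication-related element, DRE) nor GAGAGAG (the GAGA factor word) was found at any of the 31, against 2.69% and 1.64%. Each interval given for the 31 summits holds the share of all arms.

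In promoter windows of 250 bp before to 50 bp after the TSS, CAACCCTG was in 1 of 74 members, dpr7 (1.35%), beside 1.26% of all protein-coding genes. The DRE was in 6 (8.11%, beside 9.37%), motif 1 in 4 (5.41%, beside 6.05%), the GAGA word in 4 (5.41%, beside 5.87%), the E-box in 3 (4.05%, beside 17.7%) and the TATA box in 27 (36.5%, beside 45.9%). Of the 6 members with a DRE, PIP4K and PlexA had an IDR promoter peak. Member promoters were poor in G and C, with a median of 32.2% against 42.4% over all protein-coding genes. So was the whole sequence of chromosome 4, at 35.2% against 42.2% on all arms. The 101 bp around IDR summits averaged 34.2% G and C on chromosome 4 and 34.5% on all arms.

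Of 8 chromatin genes that lie on other chromosomes and are not members, 6 had an IDR promoter peak (75%, beside 30.7% of all protein-coding genes). The list is short and was chosen with earlier results known, so its share is a description. It goes beyond the genes of HP1a, Pof, egg and wde named above, so the share is not one of chromosome 4 regulators. The strongest was at Hmt4-20, a histone H4 methyltransferase, with a signal of 4792 at rank 12, and Su(var)3-7, a zinc finger partner of HP1a, followed with 1561 (rank 238). The egg partner wde had 639 (rank 921), the HP1a gene 314 (rank 2200), the H3 methyltransferase gene Su(var)3-9 186 (rank 4188) and Pof 168 (rank 4756). The peak at egg was outside the IDR list, with a pooled signal of 140 (rank 5961), and HP1c had a promoter peak in replicate 4 only (signal 42.7). Of the members, only Mpv17 and gw ranked above wde in the IDR list.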

How the data were processed

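ChIP-seq peak lists of 1 group with 2 biological replicates were used, in dm6 coordinates per the labels. The authors called peaks on each replicate and on both pooled against a control alignment, which was not analysed here, and derived the IDR list, per the deposited text records. How reads were aligned, which caller and versions were run and where the IDR was cut is information not given in the sources used here. Peak signal was taken as deposited by the authors, on a scale that differs between lists. The authors' −log10 q values reach a ceiling in each deposited list, so peaks were ranked by signal. The lists hold no read counts, so the depth and precision of the signal are unknown.

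Genes and TSSs came from the Ensembl BDGP6.54 annotation (release 115), and sequence from the RefSeq copy of the same assembly, whose coordinates are those of dm6. Summits (peak start plus offset) were assigned to genes with Python 3.11.15 and NumPy 2.4.6, in code tested on simulated data. Shares carry Wilson 95% intervals, which cover the sampling of genes or peaks only. With 1 group, no difference between conditions could be tested, and the members were set beside all protein-coding genes without a test.

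Every member with an IDR summit was named, then the 10 members with the strongest pooled promoter peak outside the IDR list, and those with no promoter summit in any list. The members, role lists and words were chosen with earlier results of these data known. Of the role list, 1 symbol (Dgkd) was not matched and not used here. Alternatives were other promoter windows, single replicates, stronger peaks, whole peak intervals and genes without near neighbours. The comparison of promoter peaks with genes of like length, the split of summit position by neighbours and the split into segments were added after the data were seen.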

Additional observations from a re-analysis of the deposited data

How the results depend on the processing

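Of 42 alternative values, 33 stayed within 1.5 times the main count or within the interval of the main share, and 9 moved further. All are counts or shares, so a change of sign was not possible. The order of the members against other genes turned for IDR promoter peaks in some settings. The shares were 23.8% and 16.5% without near neighbours and 27% and 26.4% with promoters set at 250 bp. They were 36.5% and 29.4% on the best peaks of replicate 3, against 27% and 30.7% in the IDR list. In the other settings the members stayed lower. For gene-body peaks the shares were 10.8% and 8.38% in the IDR list. The members stayed higher at 250 bp (12.2% and 9.41%) and on the best peaks of replicate 4 (10.8% and 8.36%). They were lower on those of replicate 3 (8.11% and 8.31%) and in the other settings given below. Limiting the IDR list to its stronger part, above the median rank, left 7 members with a promoter peak (9.46%). Beside them stood 2480 other protein-coding genes (17.9%). It left 3 members with a gene-body peak (4.05%), beside 669 other protein-coding genes (4.82%). Leaving out genes with another TSS within 1000 bp left 10 of 42 members and 1185 of 7177 other genes with a promoter peak. Members with a gene-body peak fell to 3 with promoters set at 1000 bp (4.05%, beside 6.23% of other genes). They fell to 5 with whole peak intervals in place of summits (6.76%, beside 8.95%). That count thus depends on the promoter limit and on how a peak is placed. Within 100 bp of pooled summits of chromosome 4 the TATA box share was 43.3%, against 29.6% on all arms. Using 1 replicate in place of both, with as many of its best peaks as the list holds, gave 20 to 27 members with an IDR-sized promoter peak, 6 to 8 with a gene-body peak, 9 to 13 in the distal segment, 4073 to 4238 other genes with a promoter peak and 1152 to 1159 with a gene-body peak. With a single replicate's full list in place of the pooled list, 59 to 62 members had a promoter peak. No paired analysis was possible because there was only 1 group and no test. With depth unknown, a missing peak does not show that a gene was unbound.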
